A study of Mus musculus with 26 samples.

Results

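Spermatogonia are the germ cells at the base of the seminiferous tubule, and the genes described here mark their stem and progenitor states. They are 10 genes chosen by name from common knowledge of spermatogonia, of 54589 gene symbols across the series: Gfra1, Ret, Zbtb16, Id4, Etv5, Nanos2, Sohlh1, Sohlh2, Dmrt1 and Uchl1. The testis table held 9 of the 10 and all 9 passed the filter on low values; Nanos2 was not analysed in testis. The question asked of them is whether the stem or the differentiating side stands relatively higher when Tex10 is deleted. The series holds 26 mouse RNA-seq libraries. In testis, 2 wildtype libraries were compared with 2 libraries of Tex10 conditional knockout (cKO) mice, all of strain C57BL/6N and untreated. The age of the animals, the driver of the deletion and whether animals were pooled are not given in the sources used here. As a side view, cells of strain 129Sv/J were followed from epiblast-like cells (EpiLCs) to primordial germ cell-like cells (PGCLCs). In one experiment 2 untreated EpiLC libraries stood beside PGCLCs at day 2 and day 4 with DMSO or with dTAG13 (500 nM), a small molecule that sends a tagged protein for breakdown, 2 libraries per group. The authors named the data of this experiment for Tex10 knockout. In the other, Tex10 was overexpressed in 2 clonal lines set beside 1 line with an empty vector, with 1 library per line as EpiLCs and on PGCLC days 2, 4 and 6.

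Spermatogonial stem cells are kept by GDNF, a growth factor from Sertoli and peritubular cells, which binds the co-receptor GFRA1 and signals through the kinase RET. Among the genes that act below or beside this signal are Etv5, a transcription factor, and Id4, an inhibitor of bHLH transcription factors, while Zbtb16 (PLZF) and the RNA-binding protein Nanos2 hold cells undifferentiated. The bHLH factors Sohlh1 and Sohlh2 drive spermatogonial differentiation, during which cells gain the receptor KIT and, under retinoic acid, Stra8. Dmrt1, a regulator of mitosis and meiosis, and Uchl1, a ubiquitin hydrolase, mark spermatogonia more broadly, and here they stand on neither side. Several of these genes are also active in somatic cells: Sertoli cells make Dmrt1 and Etv5, and Leydig cells can make Kit.

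Because Sohlh1 and Sohlh2 carry the differentiating side and Id4 is an inhibitor of proteins that bind E-boxes, their promoters are shown. Each run is the 250 bases before the start site in RefSeq (GRCm38.p6), written 5′ to 3′ on the gene's strand. Capitals mark the E-box CANNTG (which includes CACGTG), the nuclear receptor element AGGTCA and the ETS core CCGGAA, searched on both strands. In Sohlh1 an AGGTCA shares bases with a CACGTG. RefSeq promoters were matched for 7 of the 10 genes.
Sohlh1 (chr2:25847249-25847498, minus strand): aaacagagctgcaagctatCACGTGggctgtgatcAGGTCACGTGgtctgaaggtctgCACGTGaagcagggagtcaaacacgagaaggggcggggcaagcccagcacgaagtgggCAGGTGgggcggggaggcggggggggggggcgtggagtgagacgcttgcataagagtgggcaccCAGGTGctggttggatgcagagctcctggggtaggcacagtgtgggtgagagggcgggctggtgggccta
Sohlh2 (chr3:55181794-55182043, plus strand): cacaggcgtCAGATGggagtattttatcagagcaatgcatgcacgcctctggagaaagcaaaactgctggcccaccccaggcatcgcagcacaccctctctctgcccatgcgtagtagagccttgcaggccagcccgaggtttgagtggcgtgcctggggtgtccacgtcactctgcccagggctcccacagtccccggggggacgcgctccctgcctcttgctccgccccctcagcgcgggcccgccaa
Id4 (chr13:48260866-48261115, plus strand): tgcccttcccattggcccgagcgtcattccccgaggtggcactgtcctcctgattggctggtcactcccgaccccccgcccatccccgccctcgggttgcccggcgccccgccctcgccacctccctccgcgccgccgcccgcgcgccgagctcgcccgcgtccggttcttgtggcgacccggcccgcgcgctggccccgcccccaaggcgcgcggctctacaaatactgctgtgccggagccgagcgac
The Sohlh1 window held 5 E-boxes, 3 of them CACGTG, the Sohlh2 window held 1 and the Id4 window held 0. Of the windows not shown, that of Gfra1 held 3 E-boxes and those of Uchl1 and Nanos2 held 0. Etv5 held 2 in 1 window and 0 in its other window. Several windows lie partly in exons annotated in GENCODE M21. Of the 250 bases, exons covered 188 for Gfra1, 222 for Uchl1, 124 for Nanos2 and 149 for the Etv5 window with 2 E-boxes. They covered 0 for the other Etv5 window, 16 for Sohlh2 and 0 for Sohlh1 and Id4. Of 32851 promoter windows of this length, 66.2% held CANNTG at least once, 6.02% held CACGTG, 14.0% held AGGTCA and 12% held CCGGAA. At least 3 copies of CACGTG stood in 20 windows (0.0609%). These matches describe the letters and are not binding sites.

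The libraries held between 6058987 and 7272313 reads in the testis table and between 5055362 and 8564563 in the tables of cells. Values are TMM-scaled CPM (reads relative to a library size corrected by the trimmed mean of M values). In testis a floor of 3 reads stood at between 0.381 and 0.514 on this scale, counting error only. Fold changes are differences of log2(value + 1), which understates the change of low genes, and a gene was called when its adjusted p in limma (Benjamini-Hochberg over all genes of the comparison) was under 0.05. Nothing in the labels says that libraries came from separate animals or cultures, so p-values measure the spread between these samples. Tex10, read first as a check of the labels, was at 79.1 and 44.1 in wildtype testis 1 and 2, and at 29.8 and 27.3 in cKO testis 1 and 2. It fell by 1.02 on the log2 scale (standard error 0.21, limma adjusted p 0.00318), and it moved to -0.61 without wildtype testis 1 (limma adjusted p 0.0189).

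In cKO testis 5 of the 9 members rose, 0 fell and 4 did not pass. Dmrt1, Etv5, Sohlh2, Uchl1 and Id4 were the ones that rose, by between 1.32-fold and 1.95-fold in mean level. Gfra1, the co-receptor gene of the GDNF signal, was the only member with both cKO libraries below both wildtype libraries, and it did not pass. Over all 20658 genes tested, 16.1% were called higher and 13.1% lower in cKO testis (29.1% in either direction). The median log2 fold change was 0.61 over the 9 members and 0.01 over all genes tested. Both cKO libraries lay above both wildtype libraries for 7 of the 9 members and for 34.8% of all genes tested, and below them for 1 member and for 31.5%. The members were chosen with results of these data known, so these counts are descriptions. The number of members called moved with the libraries used, as did the share of all genes called. It was 1 without cKO testis 1 (15.2% of all genes called), 3 without cKO testis 2 (22.3%), 2 without wildtype testis 2 (24.0%) and 5 without wildtype testis 1 (29.5%). By model it was 5 with edgeR on recovered reads (28.6% of all genes), 2 with DESeq2 (21.2%) and 0 with limma without its variance trend (10.3%).

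**Figure D1:**
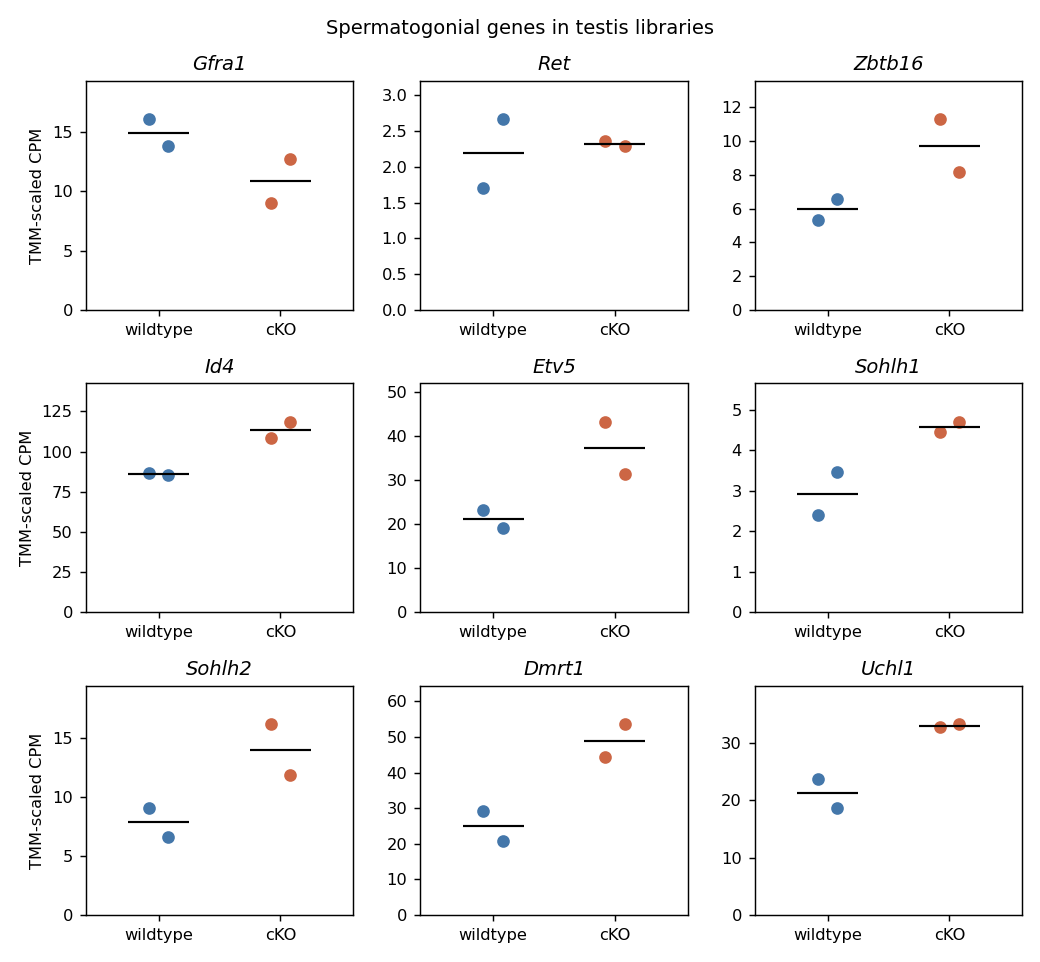
TMM-scaled CPM (vertical axes, from 0) of the 9 members measured in testis, in 2 wildtype and 2 cKO libraries, with each library as a point and the group mean as a bar. Gfra1 is lower in cKO, Ret overlaps, and the other 7 genes have both cKO points above both wildtype points.

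Neither gene of the receptor pair of the GDNF signal passed the test in testis. Gfra1 (chromosome 19, 58235604 to 58455909, minus strand, GRCm38) stood at 16.1 and 13.8 in wildtype against 9.05 and 12.7 in cKO, from between 65 and 100 reads per library. The groups did not overlap, but the step between the lowest wildtype and the highest cKO library was small against the spread within cKO. The log2 fold change of Gfra1 was -0.44 with a standard error of 0.24 and a limma adjusted p of 0.182; it was -0.22 without cKO testis 1, a shift of over 1.5 times, and -0.66 without cKO testis 2. An antisense gene, Gm16277, covers 7.6% of the exon bases of Gfra1, and no strand setting is stated for the counting. Ret (chromosome 6, 118151745 to 118197718, minus strand) was at 1.71 and 2.67 in wildtype and 2.37 and 2.29 in cKO, from 10 to 18 reads. These values overlap, and the log2 fold change of Ret was 0.08 (standard error 0.35, limma adjusted p 0.894), with its sign turning under quantile normalization (-0.03) and without wildtype testis 1 (-0.14).

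Of the nuclear factors of the stem side, Etv5 and Id4 rose in cKO testis and Zbtb16 did not pass. Etv5 (chromosome 16, 22381309 to 22439719, minus strand) was at 23.1 and 19.1 in wildtype and at 43.2 and 31.4 in cKO. Its groups did not overlap, and Etv5 rose by 0.78 on the log2 scale (standard error 0.19, limma adjusted p 0.00771); without cKO testis 1 it was 0.56 (limma adjusted p 0.114). Id4 (chromosome 13, 48261228 to 48266026, plus strand) was at 86.8 and 85.5 in wildtype and at 109 and 119 in cKO, a small step between tight groups. The log2 fold change of Id4 was 0.39 (standard error 0.12, limma adjusted p 0.0274), and the call was lost without cKO testis 1 (limma adjusted p 0.0767), without cKO testis 2 (limma adjusted p 0.194) and without wildtype testis 2 (limma adjusted p 0.0573). Zbtb16 (chromosome 9, 48654297 to 48836222, minus strand) was at 5.31 and 6.59 in wildtype and at 11.3 and 8.13 in cKO. Both cKO values of Zbtb16 were above both wildtype values, yet the log2 fold change of 0.61 did not pass (standard error 0.28, limma adjusted p 0.114), and without cKO testis 1 it was 0.40 (limma adjusted p 0.538).

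On the differentiating side Sohlh2 rose and Sohlh1 did not pass. Sohlh2 (chromosome 3, 55182028 to 55209957, plus strand) was at 9.07 and 6.59 in wildtype and at 16.2 and 11.8 in cKO, with no overlap. The log2 fold change of Sohlh2 was 0.76 (standard error 0.26, limma adjusted p 0.0402). Its call was lost without cKO testis 1 (0.55, limma adjusted p 0.311), without wildtype testis 2 (0.56, limma adjusted p 0.166) and under quantile normalization (0.56, limma adjusted p 0.124). Sohlh1 (chromosome 2, 25842995 to 25847248, minus strand), the partner of Sohlh2, was at 2.40 and 3.45 in wildtype and at 4.46 and 4.70 in cKO, from 14 to 37 reads. Its groups did not overlap, and its log2 fold change of 0.52 (standard error 0.32, limma adjusted p 0.244) did not pass; without wildtype testis 1 it was 0.33 (limma adjusted p 0.563).

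The broader markers were both higher. Dmrt1 (chromosome 19, 25505618 to 25604329, plus strand) was at 29.3 and 20.9 in wildtype and at 44.3 and 53.6 in cKO, the largest change among the members. Dmrt1 rose by 0.95 on the log2 scale (standard error 0.18, limma adjusted p 0.00193). It was the only member called when any 1 of the 4 libraries was left out, with values from 0.72 to 1.19. Uchl1 (chromosome 5, 66676091 to 66687234, plus strand) was at 23.8 and 18.7 in wildtype and at 32.7 and 33.3 in cKO. Uchl1 rose by 0.62 on the log2 scale (standard error 0.18, limma adjusted p 0.0173). Its call was lost without cKO testis 1 (limma adjusted p 0.0639), without cKO testis 2 (limma adjusted p 0.0619) and without wildtype testis 2 (limma adjusted p 0.102). The antisense gene Uchl1os covers 18.1% of the exon bases of Uchl1.

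Levels can be compared between genes only per length, here per kb of exon in GENCODE M21. In wildtype testis the order per kb was Id4 (22.4), Uchl1 (13.0), Dmrt1 (9.67), Etv5 (5.15), Sohlh2 (3.31), Gfra1 (2.73), Sohlh1 (2.27), Zbtb16 (1.13) and Ret (0.324). Over the wildtype libraries Gfra1 (2.52 to 2.94) overlapped both its neighbours, Sohlh2 (2.79 to 3.84) and Sohlh1 (1.86 to 2.68), while those neighbours did not overlap each other. In cKO testis Sohlh1 (3.55) and Sohlh2 (5.92) both stood above Gfra1 (1.99). Zbtb16 (1.84) there overlapped Gfra1 over the libraries. Kit was at 1.63 per kb in wildtype and 3.57 in cKO.

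Both sides were then set against each other within each library, so that scaling between libraries enters only through the added 1. The mean log2(value + 1) of the stem-side members (5 measured in testis) minus that of Sohlh1 and Sohlh2 was 1.30 and 1.35 in wildtype testis 1 and 2, and 0.91 and 1.03 in cKO testis 1 and 2. By this mean the stem side was relatively lower in both cKO libraries, by 0.36 on the log2 scale, and with medians over genes by 0.94. Both sides were higher in cKO on the deposited scale, the stem side by 0.28 and the differentiating side by 0.64. With Gfra1 and Ret alone as the stem side, the within-library difference was 0.22 and 0.34 in wildtype and -0.73 and -0.35 in cKO, a step of -0.82. The other stem-side members changed by 0.61 (Zbtb16), 0.39 (Id4) and 0.78 (Etv5), a range that overlaps Sohlh1 (0.52) and Sohlh2 (0.76). The lower mean of the stem side thus came mostly from Gfra1 (-0.44) and Ret (0.08), neither of which passed. The wider lists, with 11 stem and 8 differentiating genes measured, gave -0.22 and -0.51 in wildtype and -0.78 and -0.90 in cKO, a step of -0.48, or -1.03 with medians. The loss of listed genes was on the stem side. Of 11 further stem genes listed, only 6 were analysed in testis (not Eomes, Pax7, T, Piwil4 or Cdh1), against 6 of 6 differentiating genes. Summed levels of the listed genes that are not members went the other way: the sum of the 6 further stem genes was 1.605 times as high in cKO (34.4 to 37.0 in wildtype, 52.1 to 62.4 in cKO), and that of the 6 differentiating genes, most of it Dmrtb1, was 0.922 times as high (772 to 836 in wildtype, 702 to 780 in cKO). Each of these sums turned on 1 gene: without Adgra3 the stem sum was 0.890 times as high in cKO (17.3 to 19.0 in wildtype, 13.6 to 18.7 in cKO, with overlap), and without Dmrtb1 the differentiating sum was 2.18 times as high (26.4 to 30.4 in wildtype, 60.4 to 63.4 in cKO). These sums without 1 gene were added after the data were seen. No p is given for these means over genes. With 2 libraries against 2, an exact permutation test of a single value cannot give a two-sided p below 0.333.

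Ratios of Gfra1 to single genes of the other side give the size of the shift within a library. Since Gfra1 was below and each of these genes above wildtype in both cKO libraries, the direction of these ratios was fixed and is no separate evidence. Gfra1 over Kit was 1.12 and 0.946 in wildtype against 0.293 and 0.388 in cKO, so the mean ratio was 3.04 times higher in wildtype. Gfra1 over Stra8 was 10.4 and 6.77 in wildtype and 1.76 and 2.78 in cKO. Gfra1 over Sohlh2 was 1.77 and 2.10 in wildtype and 0.560 and 1.08 in cKO, and Gfra1 over Sohlh1 was 6.71 and 4.00 against 2.03 and 2.70. The other stem-side genes were less separated from Sohlh2: Etv5 over Sohlh2 was 2.73 ± 0.253 in wildtype and 2.66 ± 0.0117 in cKO (SD, n = 2 each), and Id4 over Sohlh2 was 11.3 ± 2.41 and 8.37 ± 2.35, both with overlap. Etv5 over Sohlh1 (7.59 ± 2.90 in wildtype, 8.18 ± 2.13 in cKO) and Zbtb16 over Sohlh1 (2.06 ± 0.216 and 2.13 ± 0.567) had the higher mean in cKO, with overlap. Of the 16 ratios of Ret, Zbtb16, Id4 and Etv5 to these genes, 8 had both cKO libraries below both wildtype libraries (4 of 4 over Stra8, 3 of 4 over Kit, 1 of 4 over Sohlh1 and 0 of 4 over Sohlh2) and 8 overlapped. Kit was 2.20 times and Stra8 2.72 times as high in cKO, so an unchanged gene would also have a lower ratio to them. The share of all genes with such separated ratios was not computed, so this count is no separate evidence about the stem-side genes. Against Kit, Id4 separated, at 5.95 ± 0.124 in wildtype and 3.56 ± 0.0759 in cKO, and Etv5 overlapped, at 1.46 ± 0.209 and 1.18 ± 0.310.

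**Figure D2:**
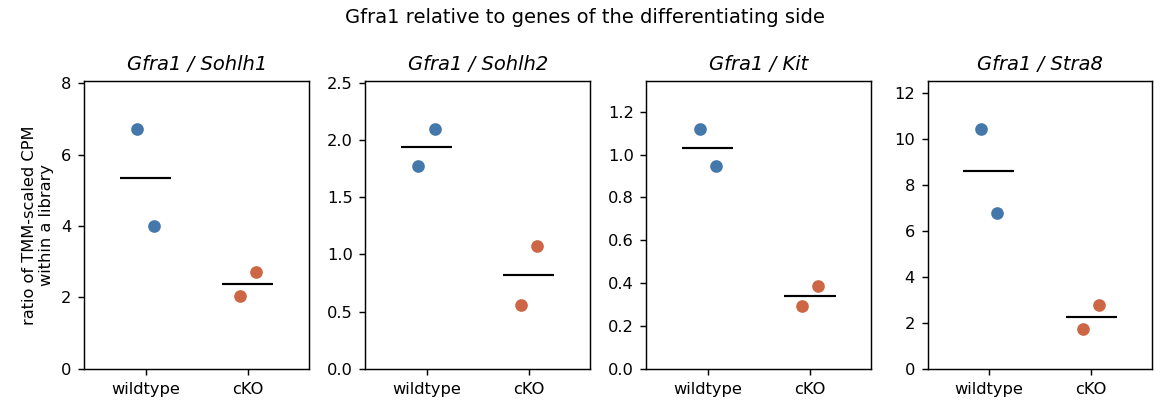
Ratio of the TMM-scaled CPM of Gfra1 to that of Sohlh1, Sohlh2, Kit and Stra8 within each testis library (vertical axes, from 0), with libraries as points and group means as bars. Each ratio is lower in both cKO libraries than in both wildtype libraries, and Gfra1 over Kit lies near 1 in wildtype and under 0.4 in cKO.

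Other genes of the spermatogonial states were read from lists chosen by common knowledge. For these and the later testis lists the background is 16.1% of all genes tested called higher and 13.1% lower. Of 6 further stem genes tested, 1 rose and 0 fell, with a median log2 fold change of 0.16, a share of calls near that background. The one that rose was Adgra3, the adhesion receptor also known as GPR125, from 17.5 ± 0.614 to 41.1 ± 3.70 (SD, n = 2 each; 1.18, limma adjusted p 0.000305). Of 9 progenitor genes listed, 7 were tested (not Neurog3 or Upp1). Of these 7, 4 rose and 0 fell, with a median of 0.70. Sox3, a transcription factor of progenitors that lead toward differentiation, went from 4.01 ± 0.101 to 12.7 ± 3.31 (1.42, limma adjusted p 0.00233). Lin28a, an RNA-binding protein, changed by 1.06, Foxo1, a forkhead factor also known from stem cell maintenance, by 1.10 and Taf4b, a subunit of the general transcription machinery, by 0.70, with limma adjusted p of 0.0223, 0.0031 and 0.00873. Lin28a was no longer called without cKO testis 1, cKO testis 2 or wildtype testis 1 (limma adjusted p 0.0936, 0.0834 and 0.0996), nor Taf4b without cKO testis 1 (limma adjusted p 0.0936).

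Of 6 differentiating genes tested, 3 rose and 0 fell, with a median of 0.88, where 16.1% of all genes tested were called higher. Kit, the receptor gained at differentiation, was at 14.4 and 14.6 in wildtype and at 30.9 and 32.8 in cKO (1.08, standard error 0.18, limma adjusted p 0.000736). Stra8, a retinoic acid target needed for meiotic entry, was at 1.54 and 2.04 in wildtype and at 5.15 and 4.57 in cKO (1.08, standard error 0.33, limma adjusted p 0.0243). For both genes the cKO libraries stood well clear of wildtype, while the call of Stra8 was lost without cKO testis 1 (limma adjusted p 0.153), without cKO testis 2 (limma adjusted p 0.0753) and without wildtype testis 1 (limma adjusted p 0.0702). Ccnd2, a cyclin of the first differentiating divisions, went from 4.64 ± 0.989 to 11.8 ± 3.77 (1.16, limma adjusted p 0.00971), and its call was lost without cKO testis 1 (limma adjusted p 0.146). Dmrtb1, named after its values were seen because it made up most of the summed level of this list, was at 746 and 806 in wildtype and 639 and 720 in cKO (-0.19, limma adjusted p 0.253).

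Of 7 genes tested that are known to respond to GDNF, 2 rose, the members Etv5 and Id4, and 1 fell, with a median of -0.02. Over all genes tested 16.1% were called higher and 13.1% lower, so these few calls do not set the list apart. The one that fell was Egr3, an early response transcription factor, from 54.6 ± 2.20 to 39.3 ± 3.84 (SD, n = 2 each; -0.47, limma adjusted p 0.0270). That call was lost without cKO testis 1 (limma adjusted p 0.212) and without wildtype testis 2 (limma adjusted p 0.090). Of 7 niche signals tested, 5 rose and 0 fell, with a median of 1.11, where 16.1% of all genes tested were called higher. All 9 Sertoli markers rose as well (median 1.45), and their part in the niche changes was not tested. Gdnf itself was at 1.88 and 2.67 in wildtype and at 7.94 and 3.81 in cKO (1.01, standard error 0.36, limma adjusted p 0.0493). Gdnf was called in 4 of 13 alternative settings, and without cKO testis 1 it was 0.57 (limma adjusted p 0.463). Kitl, the ligand of KIT, was at 20.7 and 17.7 in wildtype and at 80.4 and 50.3 in cKO (1.68, standard error 0.20, limma adjusted p 0.000108). The chemokine Cxcl12, the cytokine Csf1 and the Wnt ligand Wnt6 rose by 1.44, 1.13 and 1.11 on the log2 scale (limma adjusted p 0.00151, 0.0135 and 0.000376). Csf1 was not called without cKO testis 1 (limma adjusted p 0.131) or without wildtype testis 2 (limma adjusted p 0.0658).

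Of 11 genes of retinoic acid synthesis, breakdown and reception tested, 5 rose and 0 fell, with a median of 0.50, where 16.1% of all genes tested were called higher. All 7 Leydig and all 9 Sertoli markers rose as well (medians 1.72 and 1.45), and their part in these changes was not tested. The synthesis enzyme Aldh1a1 went from 89.0 ± 40.9 to 309 ± 141 (SD, n = 2 each; 1.78, limma adjusted p 0.000559) and Aldh1a3 from 1.70 ± 0.706 to 7.70 ± 1.91 (1.70, limma adjusted p 0.00243). Cyp26b1, which breaks retinoic acid down, rose by 0.83 (limma adjusted p 0.00175). Rara, a retinoic acid receptor, went from 28.7 ± 2.69 to 50.8 ± 0.176 (0.80, limma adjusted p 0.00169). Among the other synthesis enzymes, Aldh1a2 (58.5 in wildtype and 48.5 in cKO on average, -0.26, limma adjusted p 0.184) and Rdh10 (-0.18, limma adjusted p 0.537) did not pass; both were named after their values were seen.

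Markers of other testis cells moved with these results. Of the Sertoli list all 9 genes rose, with a median log2 fold change of 1.45, and its summed level was 515 to 594 in wildtype and 1397 to 1669 in cKO. Of the Leydig list all 7 rose (median 1.72), with summed levels of 290 to 393 in wildtype and 688 to 1243 in cKO. The spermatid list was lower, with 9 of 10 genes called (median -0.54) and a summed level of 24290 to 27105 in wildtype and 17343 to 18003 in cKO. The spermatocyte list had 2 of 9 genes called higher and 1 lower, at 343 to 349 in wildtype and 337 to 360 in cKO. The pan-germ list had 1 of 5 called, Dazl (named after its values were seen), higher by 0.87 (limma adjusted p 0.000222), at 785 to 978 in wildtype and 892 to 932 in cKO. In these bulk samples fewer cells of a type and less RNA per cell cannot be told apart. None of the genes of these lists was at 0 in any testis library. The part of these shifts in the members' changes was not tested.

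When each library was scaled to its Sertoli list, the median of all genes tested became -1.31 and only 0.348% of calls were higher, against 55.1% on the deposited scale. On that scale 77.9% of all genes tested were called, and so were 7 of the 9 members, a share near that background. All 9 members had a negative log2 fold change there, at -0.54 for Dmrt1, -0.64 for Sohlh2, -0.69 for Sohlh1, -0.71 for Etv5, -0.75 for Zbtb16, -0.86 for Uchl1, -0.98 for Ret, -1.13 for Id4 and -1.85 for Gfra1. On the deposited scale, macrophage genes (4 of 7 called higher, 0 lower, median 0.78), peritubular genes (2 of 6 higher, 1 lower, median 0.69), endothelial genes (1 of 4 higher, 1 lower, median 0.24) and red blood cell genes (0 of 2 called, median 0.25) were also read.

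**Figure D3:**
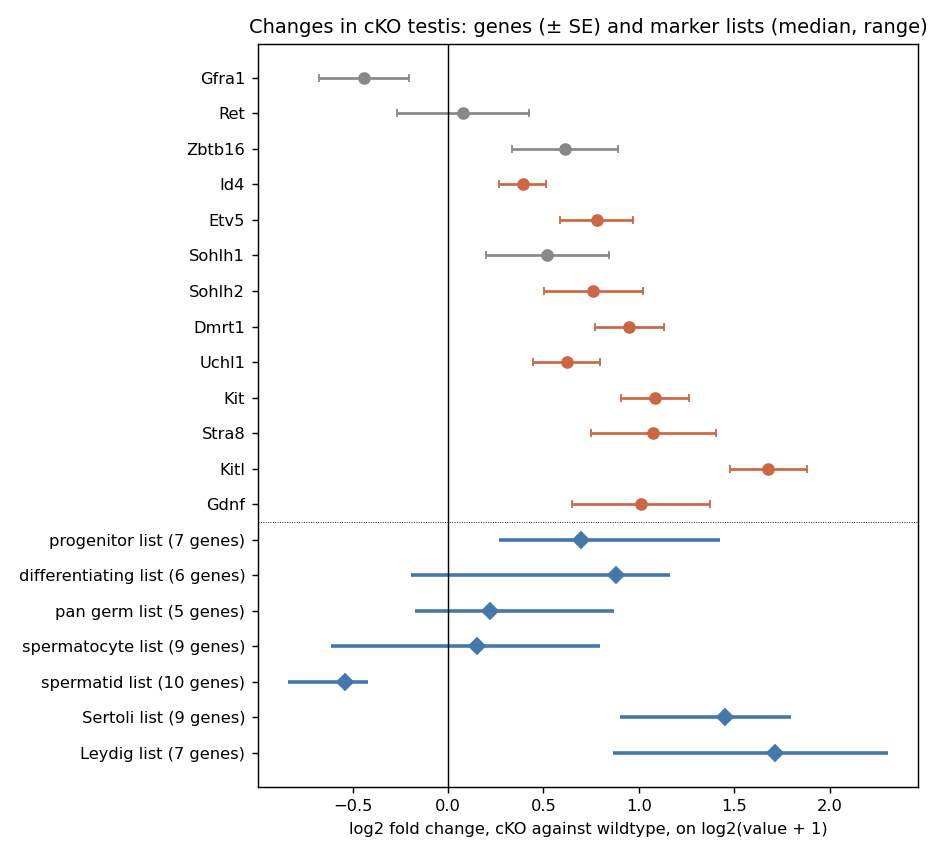
Log2 fold change in cKO against wildtype testis (horizontal axis, on log2(value + 1)) of 9 members and of Kit, Stra8, Kitl and Gdnf (points with standard error; orange, called in limma; grey, not called), and of 7 marker lists (diamond, median; bar, lowest to highest gene). Gfra1 lies lowest of the members, at -0.44, with an error bar that overlaps that of Ret, and among the lists shown Sertoli and Leydig have the highest medians.

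In PGCLCs the members were read as a side view. With dTAG13, Tex10 RNA changed by -0.14 at day 2, which did not pass (limma adjusted p 0.322). At day 4 it was lower by a log2 fold change of -0.51 (limma adjusted p 0.000576). These data hold RNA only, so the level of TEX10 protein was not read. Nanos2 was at 0 in 9 of 10 libraries of the dTAG13 experiment and in 11 of 12 of the overexpression experiment, with at most 2 reads. Sohlh1 had at most 3 reads in the first and was at 0 in 12 of 12 libraries of the second. These genes were at or below the level of 3 reads in every library of cells, which lies between 0.299 and 0.560 TMM-scaled CPM. Gfra1 and Zbtb16 were at medians of 0.892 and 0.579 in the dTAG13 experiment and did not pass its filter, so 6 members were tested there.

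With dTAG13 the differentiating-side gene Sohlh2 was near its level in EpiLCs. It was at 3.80 and 4.10 in EpiLCs, at 10.4 and 14.2 in day 2 DMSO cells and at 26.1 and 23.7 in day 4 DMSO cells. In dTAG13 cells it was at 4.51 and 3.34 on day 2 and at 5.28 and 3.34 on day 4, below both DMSO libraries on each day. Sohlh2 changed by -1.43 on the log2 scale at day 2 (limma adjusted p 0.000169) and by -2.31 at day 4 (limma adjusted p 2.42e-07), with a standard error of 0.26 for each day. The difference between the days, -0.88, did not pass (limma adjusted p 0.316). For that difference 0 of 6 members and 1.25% of genes were called (0.771% higher, 0.482% lower). Sohlh2 was called without any 1 of the compared libraries on each day.

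At day 2, 4 of 6 members tested were called, 3 lower and 1 higher, where 33.6% of 16605 genes were called, 19.9% lower and 13.7% higher. Dmrt1 was at 20.4 and 15.1 with DMSO and at 8.70 and 10.3 with dTAG13 (-0.82, limma adjusted p 0.00529), and its call was lost without day 2 DMSO replicate 1 (limma adjusted p 0.107) and without day 2 dTAG13 replicate 1 (limma adjusted p 0.0527). Uchl1 was at 26.2 and 19.8 with DMSO and at 13.5 and 15.4 with dTAG13 (-0.62, limma adjusted p 0.0164), with the call lost without the same 2 libraries (limma adjusted p 0.210 and 0.109). Ret was at 0.503 and 0.407 with DMSO, from 4 and 3 reads, and at 2.49 and 1.61 with dTAG13, from 16 and 12 reads. The log2 fold change of Ret was 1.05 (limma adjusted p 0.0175), and it did not pass without day 2 DMSO replicate 1, day 2 DMSO replicate 2 or day 2 dTAG13 replicate 1 (limma adjusted p 0.0651, 0.0853 and 0.125). Without day 2 DMSO replicate 1, 1 member and 21.7% of all genes were called, and without day 2 dTAG13 replicate 1, 1 member and 25.3%.

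At day 4, 3 of 6 members were called, all lower, where 41.8% of genes were called and 26% were lower. Uchl1 was at 24.7 and 31.1 with DMSO and at 15.3 and 11.4 with dTAG13 (-1.01, limma adjusted p 0.000229). Id4 was at 3.30 and 2.66 in EpiLCs and at 14.8 and 14.9 in day 4 DMSO cells, a step not tested, against 6.6 and 10.8 with dTAG13 (-0.75, limma adjusted p 0.0179). The call of Id4 was lost without either DMSO library (limma adjusted p 0.0605 and 0.0604) and without day 4 dTAG13 replicate 1, which moved it to -0.43 (limma adjusted p 0.247). Dmrt1 was at 15.9 and 12.6 with DMSO and at 11.7 and 8.90 with dTAG13, and it did not pass (-0.44, limma adjusted p 0.112; -0.28 without day 4 DMSO replicate 1 and -0.25 without day 4 dTAG13 replicate 2). Etv5 was high throughout, at 204 to 432, with log2 fold changes of 0.01 at day 2 and -0.04 at day 4 that did not pass (limma adjusted p 0.963 and 0.808) and whose sign at day 4 turned under median-ratio scaling (0.08). That scaling moved the median of all genes from -0.13 to -0.03 at day 4, while the higher calls went from 40.7% to 52.0% of all calls (day 2) and from 37.8% to 49.1% (day 4). Markers of other cell states moved with these results. Of 8 PGC genes tested, 4 were called lower and 1 higher on each day, with medians of -0.42 and -0.45, and their summed level at day 4 was 730 to 872 with DMSO and 652 to 691 with dTAG13. Of 4 peritubular (smooth muscle) genes tested, 2 were called higher at day 2 and 3 at day 4. Their list had a summed level at day 4 of 11.2 to 11.4 with DMSO and 70.4 to 116 with dTAG13. Most of the sum with dTAG13 was Tagln, at a mean of 75.1, against 2.76 with DMSO. Acta2 of that list went the other way without passing, at -0.71 and -0.76 on the 2 days (limma adjusted p 0.258 and 0.208). Both endothelial genes tested were called higher on each day, with a summed level at day 4 of 96.9 to 103 and 174.0 to 174.5. Most of that sum was 1 gene, Pecam1, at means of 96.0 with DMSO and 150.8 with dTAG13. Over all genes tested, 13.7% were called higher at day 2 and 15.8% at day 4. The part of these shifts in the members' changes was not tested. The EpiLC libraries were untreated, so steps from EpiLCs to DMSO cells also differ by the solvent.

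With Tex10 overexpression 1 of 8 members tested was called, where 8.76% of 15255 genes were called, 4.54% higher and 4.22% lower. It was Gfra1, lower by a log2 fold change of -0.75 (standard error 0.23, limma adjusted p 0.0373) over all stages. That fit had stage as a covariate and no term for the line, so libraries of 1 line at different stages entered as separate samples. In the empty-vector line Gfra1 was at 10.1 in EpiLCs, then at 0.718, 1.23 and 4.22 on days 2, 4 and 6. The clones were at 4.47 and 5.08, at 0.770 and 0.757, at 0.668 and 0.187, and at 0.651 and 1.31 at the same stages, below their own empty-vector library in 6 of 8 cases. The exceptions were the 2 clones at day 2, where each of the 3 libraries had 5 reads. The call was lost without clone 1 (limma adjusted p 0.146) and without clone 2 (limma adjusted p 0.170), and 1 empty-vector library per stage leaves the spread between control lines unmeasured.

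Sohlh2 had its highest level at day 6 in each line of that experiment. It was at 17.7, 10.3, 29.7 and 69.4 in the empty-vector line, in order of stage, and at 77.5 and 80.2 in the clones at day 6. Its log2 fold change with overexpression, 0.17, did not pass (limma adjusted p 0.360), with 6 of 8 clone libraries above their own control. Uchl1 was below its own control in 7 of 8 clone libraries (-0.33, limma adjusted p 0.126). Dmrt1 stood at 33.5, 44.4, 66.7 and 62.2 in the empty-vector line over the stages, and at 33.0 to 64.4 in the clones (-0.10, limma adjusted p 0.490). Levels in the 3 experiments were scaled separately and are not compared.

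**Figure D4:**
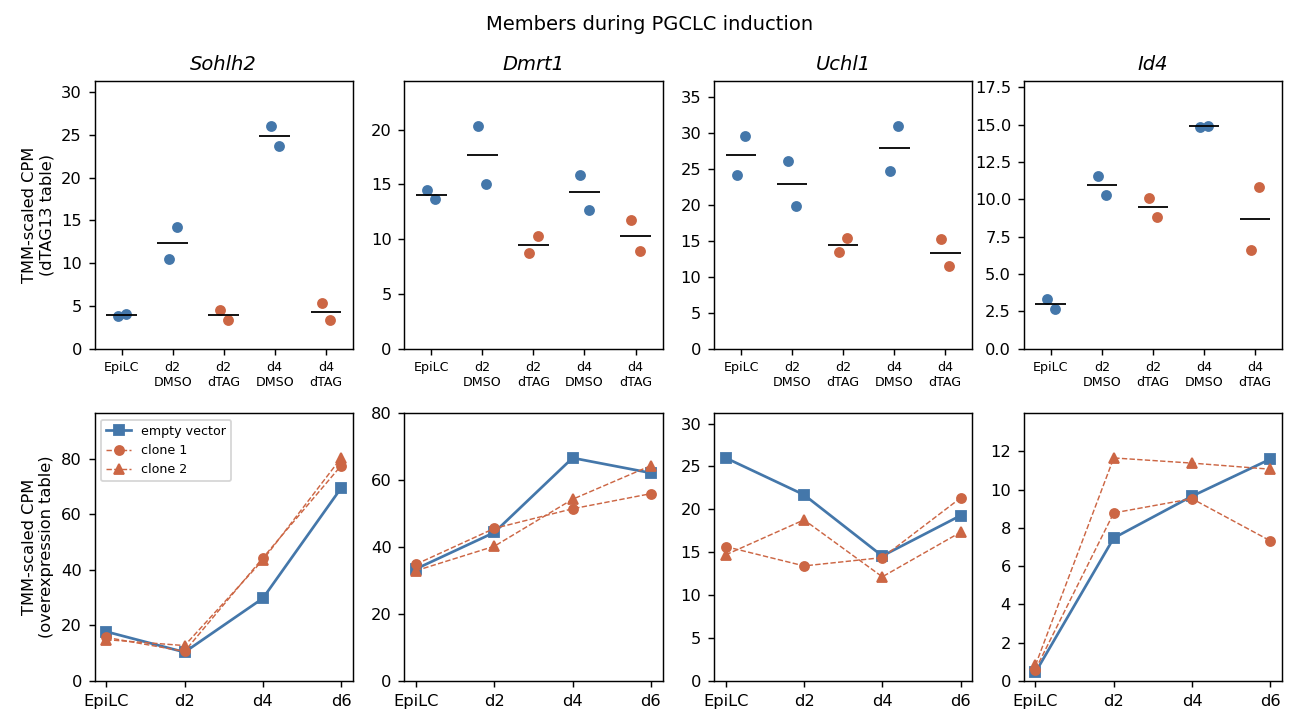
TMM-scaled CPM (vertical axes, from 0) of Sohlh2, Dmrt1, Uchl1 and Id4 during PGCLC induction. The upper row shows the dTAG13 experiment, 2 libraries per group with group means as bars (d, day; orange, dTAG13), and the lower row shows 1 empty-vector line and 2 overexpression clones with 1 library per stage. Sohlh2 is at 23.7 and 26.1 with DMSO at day 4 and under 6 in all dTAG13 libraries.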

How the data were processed

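The deposited tables hold a signal per gene, read counts over a TMM-corrected library size, as the authors named the tables and as the values themselves show. Each column held whole multiples of 1 step (100% of values within 0.05 reads), so whole reads were recovered by division. Per the submitters' processing notes the build was mm10 and the tools were Bowtie2 2.3.4.3, SAMtools 1.9, HTSeq 0.11.2 and edgeR 3.26.8, with no role given, and the annotation is not given in the sources used here. The tables also hold log2 fold changes and p-values, as deposited, which were not used. RNA was taken in Trizol, and libraries were made with a NuGEN Ovation kit (dTAG13 and testis) or a Tecan kit (overexpression), per the labels' protocols.

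Values were tested as log2(value + 1) with limma 3.58.1 in R 4.3.3, with a variance trend, keeping genes whose mean in the table reached 1 (20658, 16605 and 15255 genes). Every library of a table entered its fit, with stage as a covariate for overexpression. edgeR 4.0.16 and DESeq2 1.42.0 on recovered reads were alternatives (edgeR called 5904 genes in testis, 5033 and 6407 at day 2 and day 4 with dTAG13, and 1285 with overexpression), and the tests were tried on simulated data. The members and lists were chosen with earlier results of these data known. The named genes are the members, Tex10, Kit, Stra8, Gdnf, Kitl and the called genes of the spermatogonial, GDNF, niche and retinoic acid lists (at most 4 per list, by size of change). Dazl, Dmrtb1, Aldh1a2, Rdh10, Rxrb, Pecam1, Tagln and Acta2 were named outside this rule, after their values were seen. Other listed genes were named only as not analysed in testis. A further gene of the retinoic acid list was left out of its counts and is not reported here. Differences within groups exceeded counting error, with a chi-square per gene of 4.88 for cKO and 7.48 for wildtype testis. The day 4 against day 2 difference was added after seeing the data.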

Additional observations from a re-analysis of the deposited data

How the results depend on the processing

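Read numbers were low for Ret and Sohlh1 in testis, at 10 to 37 reads a library, and for Gfra1, Zbtb16, Nanos2 and Sohlh1 in cells. Where 1 library of a group was left, as in the empty-vector groups throughout, it is assumed to vary like the other groups. The cause of the changes below was not tested, except that an added threshold can only leave fewer calls.

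In testis 6016 genes were called. When the log2 change also had to reach 1 in size there were 1978 genes and 0 members, without the variance trend 2135 and 0, and scaled to the Sertoli list 16100. Leaving out 1 library gave 3148 to 6085 genes and 1 to 5 members. Quantile normalization gave 3 members (23.7% of all genes called) and DESeq2 2 (21.2%). The replicate number as a block gave 7185 genes and 5 members, at a pairing correlation of 0.116 over 2 pairs, which does not establish that the numbers pair animals. At day 2 and day 4 of the dTAG13 experiment the block gave 5507 and 6894 genes, at pairing correlations of -0.025 and -0.069, against 5577 and 6945.

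The stem minus differentiating difference, -0.36, was -0.43 with a pseudocount of 0.1, -0.94 with medians over genes and -0.82 with Gfra1 and Ret alone, and between -0.41 and -0.30 on leaving out 1 library. The wider difference, -0.48, was -1.03 with medians and between -0.62 and -0.33 on leaving out 1 library. Differences between same-numbered libraries have the same mean by arithmetic. The cKO to wildtype ratio of the summed stem list was 0.890 without Adgra3, and that of the summed differentiating list 2.18 without Dmrtb1.

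Scaling to the Sertoli list moves all genes of a library alike (median of all genes -1.31), so a turned sign there is no separate result about a gene. Whether or not they were called, these had a negative log2 fold change on that scale: Kit (-0.38), Stra8 (-0.071), Gdnf (-0.19), Adgra3 (-0.30), Lin28a (-0.20), Foxo1 (-0.32), Taf4b (-0.78), Ccnd2 (-0.19), Csf1 (-0.20), Cxcl12 (-0.013), Wnt6 (-0.39), Rara (-0.70), Rxrb (-1.001) and Cyp26b1 (-0.67). Kitl (0.19), Sox3 (0.088), Aldh1a1 (0.26) and Aldh1a3 (0.51) stayed positive. On that scale the members were at -0.98 (Ret), -0.75 (Zbtb16), -1.13 (Id4), -0.71 (Etv5), -0.69 (Sohlh1), -0.64 (Sohlh2), -0.54 (Dmrt1) and -0.86 (Uchl1). Ret was at -0.031 after quantile normalization and between -0.14 and 0.30 on leaving out 1 library.

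At day 2, 1789 genes and 2 members changed by 1 or more, no filter on low values left 2 members, and leaving out 1 library gave 3603 to 4208 genes and 1 to 4 members. With no filter at day 2, 11.8% of all genes were called, against 33.6% in the main fit. At day 4 the fold threshold left 2597 genes. Etv5 was between -0.078 and 0.094 at day 2 on leaving out 1 library. At day 4 it was 0.081 after median-ratio scaling, 0.011 after quantile normalization, 0.091 with edgeR and 0.096 with DESeq2, and between -0.10 and 0.031 on leaving out 1 library. For overexpression 1337 genes were called, against 42 with the fold threshold, 642 with no filter on low values, 431 without the variance trend and 413 to 425 without 1 clone. Its 1 member called became 0 with a pseudocount of 0.1, no filter, a mean of at least 5 (under which Gfra1 was not tested), quantile normalization, no variance trend, the fold threshold or without either clone. The share of all genes called was 8.76% in the main fit, 8.05% with a pseudocount of 0.1, 2.24% with no filter and 11.1% with a mean of at least 5. It was 7.93% after quantile normalization and 2.83% with no variance trend. Ret under overexpression was 0.13 after quantile normalization and 0.0025 with edgeR, and between -0.096 and 0.078 without 1 clone, and Id4 was between -0.067 and 0.27.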
